A study of Mus musculus with 50 samples.

Results

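The genes followed here are Ring1, Rnf2, Pcgf1, Pcgf3, Pcgf5, Pcgf6, Kdm2b, Rybp and Yaf2, which encode subunits of the variant forms of Polycomb repressive complex 1 (PRC1). They were chosen by name, as 9 of the 18055 genes in the table of RNA-seq counts, and each was also followed in the peak lists of the chromatin libraries. Of those 18055 genes, 13872 had a mean normalised count of at least 5 and were tested, and all 9 were among them. The series holds 50 samples of E14 cells, a mouse embryonic stem cell (ESC) line, grown in 2i/LIF medium with serum. The RNA-seq comprised 8 libraries, 2 for each of 4 lines: wild-type (WT) cells with both H3K27 methyltransferases; Ezh2 KO cells, which lack EZH2 and keep EZH1; Ezh1/2 dKO cells, which lack both; and Ezh2 Y726D cells, which carry a catalytic point mutation on both Ezh2 alleles in an Ezh1 KO background. Chromatin was described by 28 peak lists for 7 marks, factors or assays, with 1 list per line and target. SUZ12, H3K27me3 and H3K27ac lists were also used from Ezh2 R685C cells, made in the same Ezh1 KO background, and HA lists from dKO cells with and without an HA-tagged EZH1. The paper describes Y726D as catalytically inactive, and R685C as a mutation that rescued H3K27me2 in preference to H3K27me3. The KO lines are CRISPR/Cas9 clones, so a difference between lines is a difference between clones, and the labels do not say whether the 2 libraries of a line come from separate cultures. The p-values therefore measure the spread between these libraries, which may be technical.

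PRC1 is an E3 ubiquitin ligase built on RING1A or RING1B (encoded by Ring1 and Rnf2), and it monoubiquitinates histone H2A. The PCGF partner decides the form: PCGF1, PCGF3, PCGF5 and PCGF6 build the variant complexes, which carry RYBP or its paralogue YAF2 in place of a CBX protein. CBX proteins bind H3K27me3, the mark set by PRC2 (EZH1 or EZH2 with SUZ12 and EED), and they take canonical PRC1 to it. Variant PRC1 finds chromatin in other ways, one of which is KDM2B, a subunit of the PCGF1 form whose zinc finger binds unmethylated CpG islands.

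The sequences on which the chromatin results turn are the summits of the SUZ12 peaks (the highest point with 150 bases either side) of WT cells at Kdm2b and Yaf2, the only members with such a peak. For contrast, the 300 bases before the main start site of Kdm2b, of Yaf2 and of Pcgf5 are also printed. Pcgf5 was the only member whose RNA passed the main test, and only in dKO against Ezh2 KO cells. All sequences are from mm9 and are printed 5′ to 3′ on the gene's strand, with each CpG in capitals. The Kdm2b peak summit lies at chr5:123401681-123401980, inside the gene and over an exon of the non-coding transcript Kdm2b-014, and the Yaf2 peak summit at chr15:93167713-93168012, upstream of the gene with no exon under it. The start-site sequences lie at chr5:123439316-123439615 (Kdm2b), chr15:93167367-93167666 (Yaf2) and chr19:36483938-36484237 (Pcgf5, on the plus strand; the other 4 are on the minus strand), and none of these 3 overlaps an exon.
Kdm2b, SUZ12 peak in WT: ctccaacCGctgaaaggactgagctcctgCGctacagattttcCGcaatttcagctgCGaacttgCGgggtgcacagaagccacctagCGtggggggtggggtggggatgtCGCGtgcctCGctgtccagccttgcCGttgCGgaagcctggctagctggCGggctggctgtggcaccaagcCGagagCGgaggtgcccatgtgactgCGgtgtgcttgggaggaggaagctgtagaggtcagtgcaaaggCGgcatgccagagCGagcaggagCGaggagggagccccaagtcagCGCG
Yaf2, SUZ12 peak in WT: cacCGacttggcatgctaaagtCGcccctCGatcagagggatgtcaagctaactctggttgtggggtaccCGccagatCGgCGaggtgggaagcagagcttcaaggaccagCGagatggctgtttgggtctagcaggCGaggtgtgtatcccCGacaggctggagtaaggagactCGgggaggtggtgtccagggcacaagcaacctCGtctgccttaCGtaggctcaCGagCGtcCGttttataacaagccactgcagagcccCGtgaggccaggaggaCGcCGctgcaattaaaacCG
Kdm2b, start site: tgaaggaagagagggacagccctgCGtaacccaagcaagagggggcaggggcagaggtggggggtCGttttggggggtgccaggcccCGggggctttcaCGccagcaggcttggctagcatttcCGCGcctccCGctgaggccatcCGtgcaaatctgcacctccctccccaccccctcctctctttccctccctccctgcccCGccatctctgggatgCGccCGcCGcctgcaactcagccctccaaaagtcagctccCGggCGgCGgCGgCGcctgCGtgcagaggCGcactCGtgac
Yaf2, start site: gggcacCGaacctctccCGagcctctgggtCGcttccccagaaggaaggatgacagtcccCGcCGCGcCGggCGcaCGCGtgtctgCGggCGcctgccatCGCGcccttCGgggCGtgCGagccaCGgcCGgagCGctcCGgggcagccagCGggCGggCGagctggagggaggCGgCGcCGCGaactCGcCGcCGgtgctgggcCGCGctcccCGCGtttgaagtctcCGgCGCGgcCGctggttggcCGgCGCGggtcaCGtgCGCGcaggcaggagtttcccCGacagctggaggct
Pcgf5, start site: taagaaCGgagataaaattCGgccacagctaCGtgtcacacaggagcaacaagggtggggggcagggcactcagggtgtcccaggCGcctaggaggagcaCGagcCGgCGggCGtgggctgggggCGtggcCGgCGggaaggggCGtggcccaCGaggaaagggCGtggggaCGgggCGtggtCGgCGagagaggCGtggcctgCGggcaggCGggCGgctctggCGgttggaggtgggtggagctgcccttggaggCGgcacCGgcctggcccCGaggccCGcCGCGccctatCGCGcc
The 300 bases held 20 CpGs at the Kdm2b peak, 19 at the Yaf2 peak, 20 before the Kdm2b start, 46 before the Yaf2 start and 31 before the Pcgf5 start. The median was 23 over the 5404 SUZ12 peak summits of WT cells and 10 over the 22361 promoters of protein-coding genes cut in the same way, so both peaks and all 3 promoters were richer in CpG than the median promoter, and both peaks were below the median SUZ12 peak.

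Over the 9 members, the 300 bases before the start of the longest transcript held 12 to 58 CpGs. Each of the 9 was above the median of 10. Rybp had the most, 58, at the 99.9th percentile of all promoters, followed by Yaf2 at the 98.2nd and Rnf2, with 37, at the 94.5th. Ring1 had the fewest, 12, but its longest transcript is an annotated retained intron whose start lies inside the gene. A pair of short motifs was searched on both strands. The E-box CACGTG, read by MGA and MAX of the PCGF6 form, was present in 3 of the 9 sequences (Rybp, Yaf2 and Ring1) and in 7.5% of all promoters. The Ring1 sequence lies inside the gene, downstream of the start of its coding transcript, so the promoter of that transcript was not searched. The E2F motif GGCGGGAA was present in Rnf2 and Pcgf5 and in 2.7% of all promoters. None of the 9 sequences held both. Both motifs contain a CpG, and all 9 sequences were richer in CpG than the median promoter. A background matched for CpG was not drawn, so these counts do not show an excess of either motif.

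The depth of the RNA-seq was modest. Between 3604123 and 5181553 reads were assigned to genes per library. Replicate libraries of a line correlated with r of 0.953 to 0.978 across genes, and their chi-square per gene was 4.01 to 11.6, so they differed by more than counting noise. The targeted genes followed the labels. Ezh2 stood at 597.6 and 545.9 normalised counts in WT, at 1.046 and 0.9676 in Ezh2 KO, at 0.8243 and 1.776 in dKO, and at 421.7 and 613.1 in Ezh2 Y726D cells, whose mutant transcript is still made. Ezh1 stood at 226.8 and 377.4 in WT, at 14.01 and 20.42 in dKO and at 24.07 and 15.66 in Ezh2 Y726D cells, a log2 fold change of −4.03 (adjusted p = 0.00269) and −3.84 (adjusted p = 0.00229). All 7 ESC markers examined, among them Pou5f1 and Nanog, were expressed in every line, with summed normalised counts of 12890 to 13880 in WT, 12910 to 13170 in Ezh2 KO, 11230 to 12110 in dKO and 11330 to 12100 in Ezh2 Y726D. The summed markers of other cell types were lower, the highest being the neural ones (4 of 4 in the table), at 503.6 to 1270 in WT, 513.4 to 790.6 in Ezh2 KO, 739.4 to 928.8 in dKO and 517.1 to 861.4 in Ezh2 Y726D. Mesoderm markers (3 of 4) summed to 39.73 to 181.2 over the 8 libraries, and fibroblast markers (2 of 4) to 0 to 14.21. Primitive endoderm markers (4 of 4 in the table) summed to 5.336 to 25.03 in WT and 45.33 to 48.84 in dKO, and trophectoderm markers (4 of 4) to 11.55 to 77.37 in WT and 53.5 to 457.6 in Ezh2 Y726D.

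On a scale of normalised counts per kilobase of annotated exon, which allows genes to be compared with one another, Rnf2 had the highest level of the 9 members in every line. In WT it stood at 444 ± 24.5 (SD, n = 2). Pcgf1, at 185 ± 76.9, and Rybp, at 162 ± 23.8, followed and overlapped. Kdm2b stood at 49 ± 0.43, Pcgf6 at 41.9 ± 8.61 and Yaf2 at 34.9 ± 8.07, and of these Pcgf6 and Yaf2 overlapped. The lowest were Pcgf3, at 19.6 ± 1.41, Pcgf5, at 15 ± 8.48, and Ring1, at 9.74 ± 0.764; Pcgf5 overlapped both of the others. The exon length counts all annotated transcripts, which lowers the level of genes with many of them, such as Kdm2b with 23.

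On this scale, the same paralogue led within each family in all 8 libraries. Ring1 made up 1.73% to 3.27% of the summed Ring1 and Rnf2 level per kilobase, so nearly all of the transcript for the catalytic subunit was Rnf2. Yaf2 made up 15% to 24.2% of the summed Rybp and Yaf2 level. Among the 4 PCGF genes, Pcgf1 held the largest share, from 59.8% to 78.5%. That rank rests on exon length, 870 bp for Pcgf1 and 9544 bp for Pcgf3. The lengths are from GENCODE, while reads were counted on RefSeq genes. In normalised counts, WT replicate 1 had 113.4 for Pcgf1, 177.4 for Pcgf3 and 196.1 for Pcgf6, whereas Pcgf1 led in WT replicate 2 with 208. The share of Pcgf5 was 9.62% and 2.94% in WT, 2.81% and 4.24% in Ezh2 KO, 14.3% and 14% in dKO, and 7.38% and 11.4% in Ezh2 Y726D. Both dKO libraries were above the other 6.

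**Figure D1:**
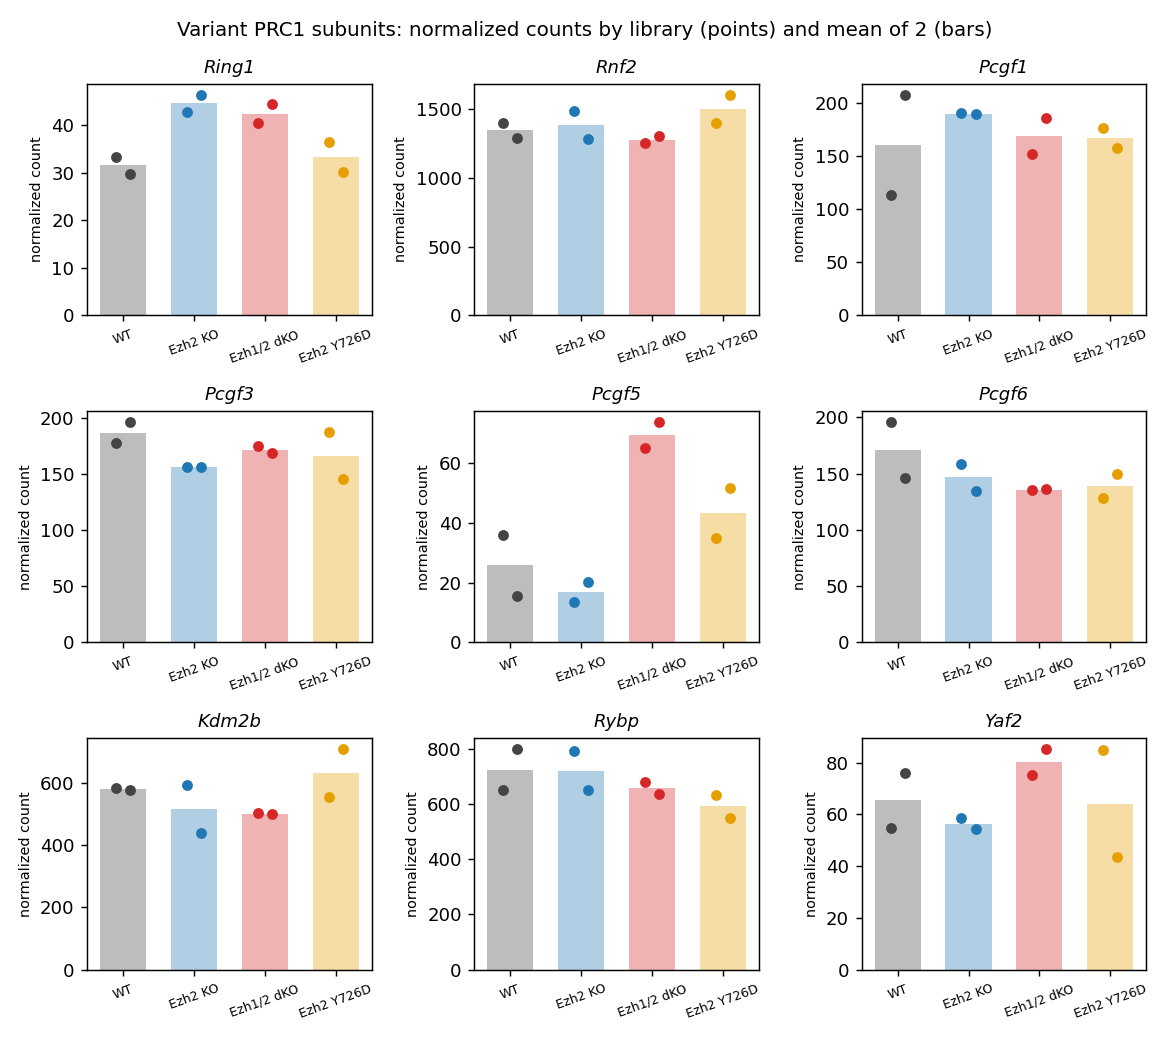
Normalised counts of the 9 variant PRC1 subunits in the 8 RNA-seq libraries, 1 panel per gene with its own axis from 0; points are libraries, bars the mean of the 2 libraries of a line. Pcgf5 is the member whose lines separate most, from 13.59 in an Ezh2 KO library to 73.7 in a dKO library, while Rnf2 stays between 1251 and 1605 throughout.

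The comparison of each mutant line with WT asks whether the genes of variant PRC1 change in RNA level when H3K27 methylation is reduced or lost. A gene was called when its adjusted p was under 0.1 (limma, Benjamini-Hochberg over all 13872 genes) and its fold change at least 2. No member was called in Ezh2 KO, in dKO or in Ezh2 Y726D cells against WT, where 0.404%, 4.02% and 2.72% of all genes tested were called. At an unadjusted p under 0.05, 0 of the 9 members passed in Ezh2 KO (8.83% of all genes), 1, Pcgf5, in dKO (18.6%) and 0 in Ezh2 Y726D (14.3%). Counting tests on the recovered reads, by edgeR and by DESeq2, likewise called 0 of 9 in each of these comparisons. The median log2 fold change of the 9 members was −0.18, −0.07 and 0.07, beside −0.01, 0.01 and −0.01 over all genes tested. Ezh2 KO, dKO and Ezh2 Y726D cells share the WT libraries as their control, and so their fold changes are not independent.

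Pcgf5, the RING finger partner of the PCGF5 form, was the exception between mutant lines. Its normalised counts were 36.02 and 15.41 in WT, 13.59 and 20.32 in Ezh2 KO, 65.12 and 73.7 in dKO, and 34.77 and 51.46 in Ezh2 Y726D, from 27 and 16, 13 and 21, 79 and 83, and 39 and 46 reads. Both dKO libraries were above all others, both Ezh2 Y726D libraries were above both Ezh2 KO libraries, and the 2 WT libraries lay so far apart that they overlapped both Ezh2 KO and Ezh2 Y726D. Pcgf5 was higher in dKO than in Ezh2 KO by a log2 fold change of 1.99 (SE 0.472, adjusted p = 0.0721), a fold of 3.98 with a 95% confidence interval of 1.91 to 8.32. It was the only member called in that comparison, 1 of 9, where 3.58% of all genes tested were called and 3.52% were called higher. By size it stood at the 95.2nd percentile of all absolute changes in the comparison.

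The call for Pcgf5 rested on few reads. It held in 12 of 18 alternative settings at the same threshold, among them edgeR (adjusted p = 0.066), DESeq2 (0.0297) and a fit restricted to those 4 libraries (0.00899), and the log2 fold change lay between 1.55 and 2.27 in all 18. It was lost after quantile normalisation (1.55, adjusted p = 0.237), with the replicate number as a block (adjusted p = 0.111) and without any 1 of the 4 libraries compared: without Ezh2 KO replicate 1 the change was 1.72 (adjusted p = 0.383), without Ezh2 KO replicate 2 it was 2.27 (0.159), without dKO replicate 1 it was 2.08 (0.368) and without dKO replicate 2 it was 1.91 (0.445). In these last 4 the change kept its size and the SE rose from 0.472 to between 0.583 and 0.648.

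In the other comparisons Pcgf5 did not pass the adjusted threshold. Against WT its log2 fold change was −0.48 in Ezh2 KO (95% confidence interval −1.54 to 0.579, adjusted p = 0.815), 1.51 in dKO (0.45 to 2.57, adjusted p = 0.135) and 0.81 in Ezh2 Y726D (−0.248 to 1.88, adjusted p = 0.504). The dKO value turned on which WT library was kept: it was 2.1 without WT replicate 1, with an adjusted p of 0.0725 that passes, and 0.92 without WT replicate 2, with 0.282. Ezh2 Y726D stood 1.3 above Ezh2 KO (0.235 to 2.36, adjusted p = 0.214) and 0.70 below dKO, a log2 fold change of −0.70 (−1.76 to 0.364, adjusted p = 0.591), so whether Ezh2 Y726D cells differ from either was not resolved by 2 libraries.

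Pcgf3, which encodes the PCGF protein closest to PCGF5 and shares its partners, had no such pattern. It stood at 177.4 and 196.4 in WT, 155.8 and 155.8 in Ezh2 KO, 174.7 and 168.7 in dKO, and 187.2 and 145.4 in Ezh2 Y726D. Its log2 fold change between dKO and Ezh2 KO was 0.14 (95% confidence interval −0.326 to 0.604). The 2 Ezh2 KO libraries were both below WT and dKO, and Ezh2 Y726D overlapped all 3.

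Neither catalytic subunit passed the test. Rnf2, which encodes RING1B, stood at 1398 and 1293 normalised counts in WT, 1489 and 1284 in Ezh2 KO, 1251 and 1305 in dKO, and 1400 and 1605 in Ezh2 Y726D. It was the best measured member (SE 0.131), and its log2 fold change against WT was 0.04 in Ezh2 KO (95% confidence interval −0.253 to 0.334), −0.07 in dKO (−0.367 to 0.22) and 0.16 in Ezh2 Y726D (−0.137 to 0.45). Those intervals leave room for folds between 0.775 and 1.37. Ring1, which encodes RING1A, stood at 33.35 and 29.85 in WT, 42.87 and 46.45 in Ezh2 KO, 40.39 and 44.4 in dKO, and 36.55 and 30.21 in Ezh2 Y726D. Its Ezh2 KO and dKO libraries lay above WT without overlap, by 0.49 (−0.269 to 1.24, adjusted p = 0.738) and 0.41 (−0.343 to 1.17, adjusted p = 0.542) on the log2 scale, differences that the spread of these few counts does not separate from 0.

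Pcgf1 and Kdm2b belong to the form that is drawn to CpG islands. Pcgf1 stood at 113.4 and 208 in WT, 190.3 and 189.7 in Ezh2 KO, 152.5 and 185.6 in dKO, and 176.5 and 157.7 in Ezh2 Y726D. The 2 WT libraries enclosed all 6 others. Kdm2b stood at 583 and 575.8 in WT, 593.9 and 438.3 in Ezh2 KO, 502.8 and 499 in dKO, and 552.8 and 708.2 in Ezh2 Y726D. Both dKO libraries were below both WT libraries, with a log2 fold change of −0.21 (95% confidence interval −0.621 to 0.202, adjusted p = 0.573), and the other 2 mutant lines overlapped WT. Of the exon bases of Kdm2b, 1.74% are shared with genes on the opposite strand, among them Orai1, and the counting did not use strand; the other 8 members share none.

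Pcgf6, the PCGF protein of the form that silences germline genes in ESCs, stood at 196.1 and 146.3 in WT, 158.9 and 134.5 in Ezh2 KO, 135.2 and 136.7 in dKO, and 128.4 and 149.9 in Ezh2 Y726D. The dKO libraries were the closest to one another and lay below both WT libraries, by a log2 fold change of −0.32 (95% confidence interval −0.835 to 0.205, adjusted p = 0.495), while Ezh2 KO and Ezh2 Y726D overlapped WT. Rybp, whose product joins RING1B in all variant forms and stimulates the ligase, stood at 648.3 and 798.2 in WT, 790.4 and 650.2 in Ezh2 KO, 680 and 634 in dKO, and 633 and 548.2 in Ezh2 Y726D. The Ezh2 Y726D libraries were below both WT libraries, with a log2 fold change of −0.29 (−0.657 to 0.0814, adjusted p = 0.494).

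Yaf2, the paralogue that can take the place of RYBP, stood at 54.69 and 76.06 in WT, 58.55 and 54.19 in Ezh2 KO, 75.01 and 85.24 in dKO, and 84.7 and 43.63 in Ezh2 Y726D. The 2 Ezh2 Y726D libraries were farther apart than the means of any pair of lines. Both dKO libraries were above both Ezh2 KO libraries, by 0.50 on the log2 scale (95% confidence interval −0.324 to 1.32, adjusted p = 0.648).

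Leaving out Pcgf5, the log2 fold changes of the other 8 members lay between −0.26 and 0.49 in Ezh2 KO, −0.32 and 0.41 in dKO, and −0.29 and 0.16 in Ezh2 Y726D against WT. The 95% confidence intervals reached folds of 2.36, 2.25 and 1.87 either way at their widest. A fold of 2 lay inside the interval of Ring1 and of Yaf2 in at least 1 of these comparisons, so a change of that size is not excluded for these members. The libraries of the 2 lines compared did not overlap in 2, 5 and 2 of the 9 members for Ezh2 KO, dKO and Ezh2 Y726D against WT, where 35.6%, 52.5% and 37.1% of all genes did not overlap. Between mutant lines they did not overlap in 4 of 9 members for dKO against Ezh2 KO, 5 for Ezh2 Y726D against dKO and 4 for Ezh2 Y726D against Ezh2 KO, beside 53.5%, 47.3% and 44.3% of all genes.

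In Ezh2 Y726D against dKO 0 members were called (1.68% of all genes), and in Ezh2 Y726D against Ezh2 KO also 0 (3.53%). At an unadjusted p under 0.05, Pcgf5 alone of the members passed for dKO against Ezh2 KO (13.4% of all genes) and for Ezh2 Y726D against Ezh2 KO (15.8%), and none for Ezh2 Y726D against dKO (13.1%). By edgeR and by DESeq2 the number of members called was the same in each of these 3 comparisons.

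**Figure D2:**
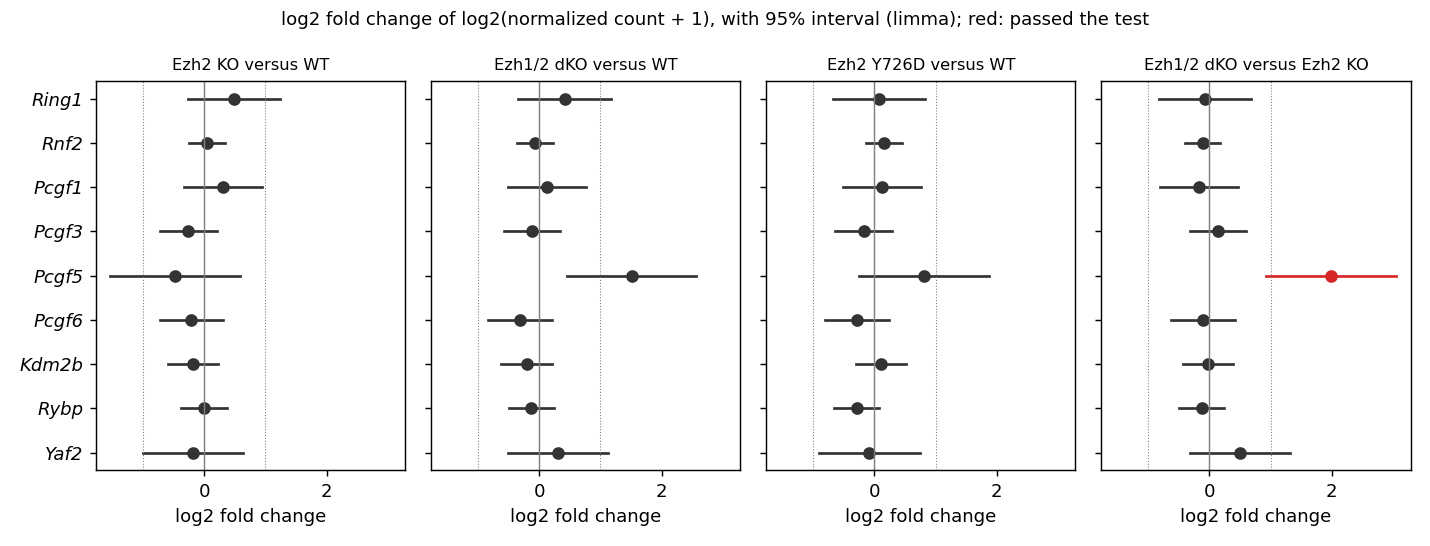
Log2 fold change of each member in the 3 comparisons with WT and in dKO against Ezh2 KO, as points with 95% confidence intervals (limma, 2 libraries per line); dotted lines mark a fold of 2 either way, and red marks a change that passed the test. Of the members, only the interval of Pcgf5 leaves 0 out, in dKO against WT (0.45 to 2.57) and in dKO against Ezh2 KO (0.933 to 3.06).

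The other subunits and targets of these complexes were examined as lists by role. These lists, and those of canonical PRC1 and germline genes below, were drawn up with earlier results of these data known. Their counts are therefore not an independent test. None of the 4 PRC1.1 partners (Bcor, Bcorl1, Usp7 and Skp1a), none of the 7 PRC1.3 and PRC1.5 partners, none of the 9 PRC1.6 partners and none of the 4 H2AK119 deubiquitinase subunits was called in any of the 3 mutant lines against WT. Of all genes tested, 0.404% were called in Ezh2 KO, 4.02% in dKO and 2.72% in Ezh2 Y726D. For lists this short, 0 calls is near those shares and does not set these genes apart. Bcor, the scaffold of the PCGF1 form, had the largest change of its list in Ezh2 KO (0.52) and in Ezh2 Y726D (0.79, adjusted p = 0.316), and Bcorl1, its paralogue, in dKO (0.76, adjusted p = 0.254). Usp7, a deubiquitinase of the same form, went from 2126 and 2063 normalised counts in WT to 1472 and 1406 in dKO; its log2 fold change of −0.54 had an adjusted p of 0.0422, under 0.1, but was short of a fold of 2. Fbrsl1 led the PRC1.3 and PRC1.5 partners in Ezh2 KO (0.58) and Ezh2 Y726D (−0.31), and Csnk2a1, a casein kinase 2 subunit, in dKO (−0.15). E2f6, the DNA-binding factor of the PCGF6 form, led its list in Ezh2 KO (−0.77, adjusted p = 0.662) and in dKO (0.59, adjusted p = 0.499), and Hdac1, a histone deacetylase, in Ezh2 Y726D (−0.36, adjusted p = 0.25). Among the deubiquitinase subunits Asxl1 led in Ezh2 KO (−0.15) and Asxl2 in dKO (−0.65) and Ezh2 Y726D (−0.68).

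The genes of canonical PRC1, the form that reads H3K27me3, were set beside them. Of the 9 examined, 0 were called in Ezh2 KO, 2 were called higher in dKO (3.63% of all genes tested) and 2 in Ezh2 Y726D (1.66%), and none was called lower. Cbx8 rose in dKO, from 11.26 ± 10.5 (SD, n = 2) to 103.7 ± 42.9, a log2 fold change of 3.36 (adjusted p = 0.0325), and in Ezh2 Y726D, to 76.59 ± 3.9 (2.99, adjusted p = 0.0545). Bmi1, which encodes PCGF4, rose in dKO by 1.41 (adjusted p = 0.0391). Cbx2 rose in Ezh2 Y726D by 1.1 (adjusted p = 0.048). In Ezh2 KO the largest change of the list was that of Bmi1, at 0.83 (adjusted p = 0.397), which did not pass. The median log2 fold change of the list was 0.165, 0.00493 and 0.0685, and that of the variant members −0.18, −0.07 and 0.07; the difference between the lists was not tested.

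Of 14 germline genes listed as PRC1.6 targets, 0 were called in Ezh2 KO (0.404% of all genes), 6 were called higher in dKO (3.63%) and 1 in Ezh2 Y726D (1.66%). In dKO these were Tex101 (3.69, adjusted p = 0.0217), Slc25a31 (2.38, adjusted p = 0.0512), Tdrkh (2.12, adjusted p = 0.0329), Dazl (1.52, adjusted p = 0.0628), Stag3 (1.16, adjusted p = 0.0391) and Mael (1.1, adjusted p = 0.0937). Mael, a piRNA pathway gene, rose in Ezh2 Y726D as well (1.52, adjusted p = 0.0467). In Ezh2 KO the largest change was that of Tex101 (1.38, adjusted p = 0.522), which did not pass. The median of the list was 0.08 in Ezh2 KO, 1.04 in dKO and 0.57 in Ezh2 Y726D. The changes were positive in 9, 12 and 12 of the 14 genes, and the lowest were −0.886, −0.882 and −0.892. Not all of the list was silent in WT, where Dazl had 218.8 and 93.39 normalised counts and Stag3 105.4 and 155. The list was drawn up with earlier results of these data known, so its counts are not an independent test of enrichment. Control of these genes by PRC1.6 was not tested. Pcgf6, E2f6 and the other 8 PRC1.6 partners were not called in the same libraries, where 0.404%, 4.02% and 2.72% of all genes were called.

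The peak lists address where PRC2 and its marks lay at the members' own genes. A member was counted when a peak with p of at most 1e-10 came within 5 kb of any of its annotated start sites, and the background is the percent of 22367 protein-coding genes counted in the same way. Each list comes from 1 library, so the counts have no replicate check, and the depth of these libraries is unknown. SUZ12 was listed at 2 of 9 members in WT (Kdm2b and Yaf2, background 14.4%), at 0 in Ezh2 KO (4.22%), 0 in dKO (1.03%), 3 in Ezh2 Y726D (Kdm2b, Ring1 and Pcgf6, 10.3%) and 0 in Ezh2 R685C (8.44%). H3K27me3 was listed at 2 members in WT (Kdm2b and Yaf2, 18.8%), at the same 2 in Ezh2 KO (14.8%), at 0 in dKO (0.103%), 0 in Ezh2 Y726D (1.35%) and 3 in Ezh2 R685C (Kdm2b, Yaf2 and Pcgf5, 24.6%). Rnf2, Pcgf1, Pcgf3 and Rybp had neither near a start in any of the 5 lines. The HA lists, which give no p and were counted whole, held no member either, in dKO with HA-tagged EZH1 (11%) or without it (2.9%).

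**Figure D3:**
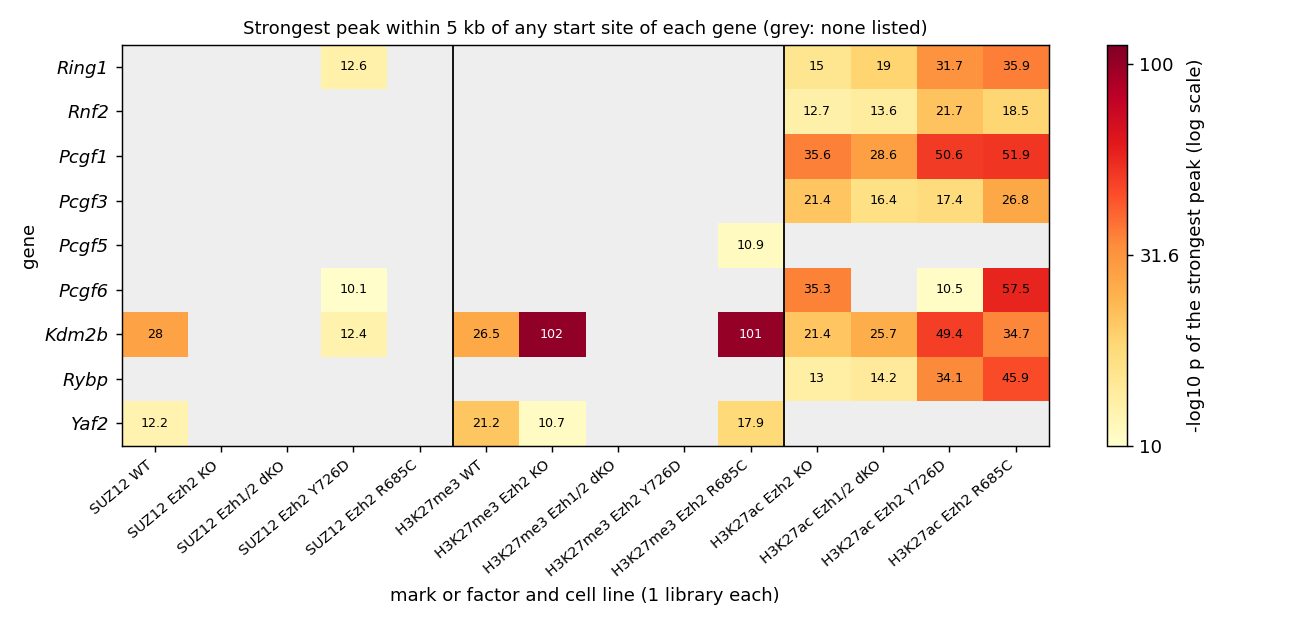
Strongest listed peak, as −log10 p, of SUZ12, H3K27me3 and H3K27ac within 5 kb of any start site of each member (rows) in each list (columns), on a log colour scale; grey cells have no listed peak. SUZ12 and H3K27me3 are listed mainly at Kdm2b and Yaf2, and H3K27ac at 7 members, all but Pcgf5 and Yaf2, though not at Pcgf6 in dKO.

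Kdm2b was the member with the strongest Polycomb peaks, and they were not at its main start. Its gene spans 123320677 to 123465089 on chromosome 5 (minus strand, mm9), and its longest transcript, Kdm2b-003, starts at 123439315. The SUZ12 and H3K27me3 peaks lay around the start of Kdm2b-014, 37316 bp further downstream and inside the gene, where the coding transcript Kdm2b-013 also starts, at 123402515. In WT, SUZ12 covered −809 to +484 bp from the Kdm2b-014 start (−log10 p 28.04, the 58.8th percentile of 5404 SUZ12 peaks), and in Ezh2 Y726D −867 to +345 bp (12.42, the 30.3rd percentile). H3K27me3 covered −1707 to +454 bp in WT (26.54), −1399 to +743 bp in Ezh2 KO (102.3) and −927 to +609 bp in Ezh2 R685C (101). A peak's p depends on the depth of its library. Ranked within its own list, the peak stood at the 95.6th percentile in WT, the 82.1st in Ezh2 KO and the 89.7th in Ezh2 R685C. In dKO neither was listed there.

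H3K27ac was listed at that internal start in Ezh2 Y726D alone (11.34, −829 to +348 bp) of the 4 lines with an H3K27ac list here, and SUZ12 was listed in the same cells. The main Kdm2b start carried H3K27ac in all 4 of those lines, with −log10 p of 21.41 in Ezh2 KO, 25.66 in dKO, 49.41 in Ezh2 Y726D and 34.7 in Ezh2 R685C, and no SUZ12 or H3K27me3 peak in any line. The RNA-seq table has 1 value per gene, so transcripts from the internal start and from the main start cannot be told apart in the Kdm2b counts given above. The sequence under the SUZ12 peak and the 300 bases before the main start, both printed above, had 20 CpGs each, with an observed-to-expected CpG ratio of 0.672 and 0.57.

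**Figure D4:**
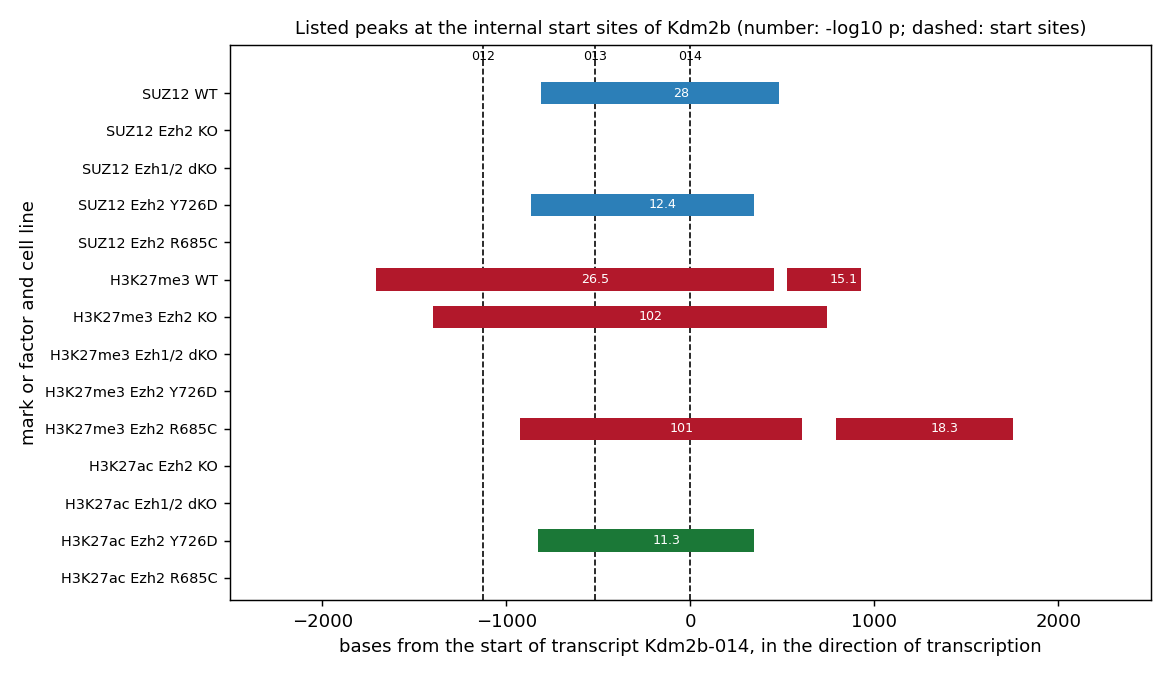
Listed SUZ12, H3K27me3 and H3K27ac peaks around the internal Kdm2b start, as bars by distance in bp from the start of Kdm2b-014, with 1 row per list, the −log10 p in each bar and dashed lines at 3 annotated starts. SUZ12 in WT (28.04) and in Ezh2 Y726D (12.42) and H3K27me3 in WT (26.54), Ezh2 KO (102.3) and Ezh2 R685C (101) span the same start, and H3K27ac is listed there only in Ezh2 Y726D (11.34).

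Yaf2 lies on chromosome 15 at 93114709 to 93167366 (minus strand, mm9). Its SUZ12 peak in WT covered −884 to −262 bp from the start (−log10 p 12.2, the 14.8th percentile of the list), and its H3K27me3 peak −2629 to −896 bp (21.23, the 87.4th percentile). In Ezh2 KO an H3K27me3 peak of 200 bp remained upstream (10.66, the 10.2nd percentile of its list), and in Ezh2 R685C a peak covered −680 to −221 bp (17.91). No list of dKO or Ezh2 Y726D had either at Yaf2. The peaks ended short of the start itself, where the promoter holds 46 CpGs, and no H3K27ac peak was listed at Yaf2 in any of the 4 lines.

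Peaks at other members were few and weak. Pcgf5 (chromosome 19, 36453557 to 36530682, plus strand) had 1, an H3K27me3 peak in Ezh2 R685C, −3946 to −3718 bp from its upstream start (10.88, the 10.8th percentile). No SUZ12, H3K27me3 or H3K27ac peak was listed near Pcgf5 in WT, Ezh2 KO, dKO or Ezh2 Y726D within 5 kb of a start (H3K27ac of WT was not analysed here). Just beyond it, a weak H3K27ac peak of Ezh2 Y726D lay +5834 to +6223 bp from the upstream start (10.47). Pcgf6 had a SUZ12 peak in Ezh2 Y726D, 64 to 304 bp after its start (10.1, the 0.208th percentile). The SUZ12 peak counted for Ring1 in Ezh2 Y726D (12.62) lay −3347 to −2960 bp from the start, where the nearest start site belongs to H2-Ke6. Pcgf1 lies between Tlx2 and Lbx2, a pair of homeobox genes with strong peaks. The SUZ12 peak at Tlx2 in WT (135.2) ended at −6589 bp from the Pcgf1 start, and the one at Lbx2 (15.43) began at +9028 bp, so neither came within 5 kb of it.

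H3K27ac, a mark of active promoters that cannot share a lysine with methylation, was listed at 7 of 9 members in Ezh2 KO (background 37.9%), 6 in dKO (28.7%), 7 in Ezh2 Y726D (47.1%) and 7 in Ezh2 R685C (46%). All 9 members passed the RNA filter, whereas the background also holds genes with little or no RNA, and a background of expressed genes was not computed. The same holds for the H3K27me1 background below. The 2 members without H3K27ac in every line were Pcgf5 and Yaf2. Pcgf1 had a strong peak in each, with −log10 p of 35.64, 28.65, 50.62 and 51.92 in Ezh2 KO, dKO, Ezh2 Y726D and Ezh2 R685C, the 92.6th to 97.3rd percentiles of their lists. Pcgf6 varied most. Its peak had 35.28 in Ezh2 KO (the 93.3rd percentile), none was listed in dKO, and it had 10.52 in Ezh2 Y726D (the 9.16th) and 57.5 in Ezh2 R685C (the 95.1st). Ring1 had 15.02, 18.96, 31.74 and 35.88, Rybp 13.04, 14.15, 34.09 and 45.88, Rnf2 12.68, 13.59, 21.67 and 18.52, and Pcgf3 21.41, 16.41, 17.38 and 26.75. At Pcgf6 the lines with no or a weak H3K27ac peak, dKO and Ezh2 Y726D, had 136 ± 1.1 and 139.1 ± 15.2 normalised counts beside 146.7 ± 17.3 in Ezh2 KO (SD, n = 2), differences within the replicate error. ATAC-seq regions, counted at any listed p since those lists reach a p near 0.1, were listed near all 9 members in all 4 lines, but also near 95% to 95.4% of all genes.

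H3K27me1 is a mark found over the bodies of transcribed genes and was listed as broad regions. In WT these covered 92.11% of the body of Ring1, 84.54% of Pcgf3, 82.05% of Pcgf1, 76.35% of Pcgf6, 73.95% of Rnf2, 60.31% of Rybp and 29.29% of Kdm2b, but 5.901% of Pcgf5 and 5.849% of Yaf2. Of the 9, 7 were above the median of all genes, 8.959%. The 2 members below it, Pcgf5 and Yaf2, were the 2 without H3K27ac in the mutant lists, and H3K27ac of WT was not analysed here. The match did not hold for regions with p of at most 0.01. There Pcgf1 had 0 cover in WT, like Pcgf5 and Yaf2, although it had strong H3K27ac peaks in the mutant lines. In Ezh2 KO the cover was 49.11% for Ring1, 14.91% for Pcgf5, 8.123% for Pcgf1, 5.365% for Yaf2 and 2.714% for Kdm2b, and 0 for the other 4. The median over the 9 members went from 73.95% in WT to 2.714% in Ezh2 KO and 6.377% in dKO, beside 8.959%, 0.5359% and 8.406% over all genes.

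**Figure D5:**
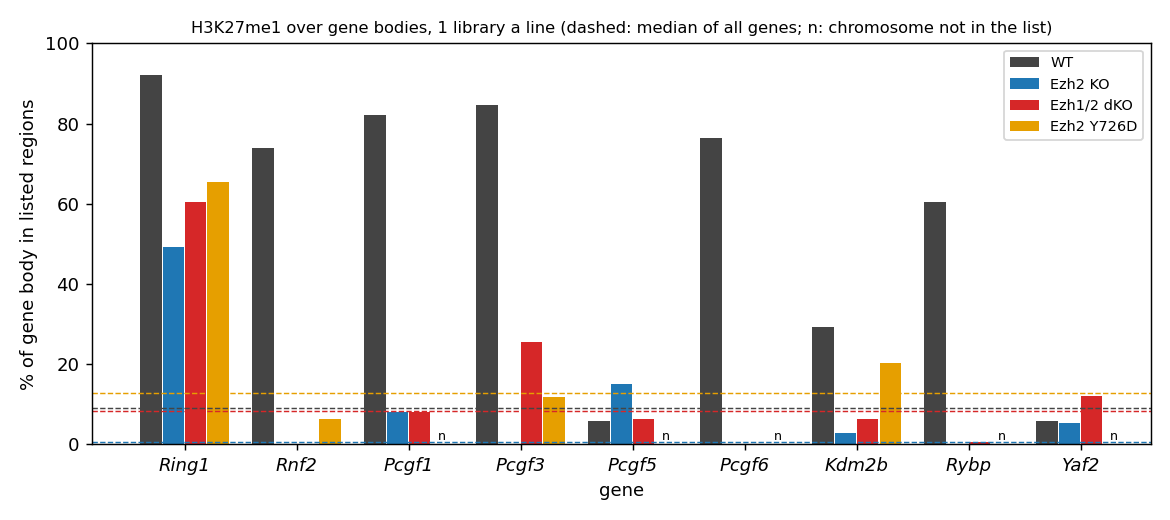
Percent of each member's gene body covered by listed H3K27me1 regions in WT, Ezh2 KO, dKO and Ezh2 Y726D cells, 1 list per line, with the median of all genes as a dashed line in each line's colour and an n where the list holds nothing on the gene's chromosome. In WT, 7 members are at 29.29% or more, Pcgf5 and Yaf2 at 5.901% and 5.849%, and in Ezh2 KO the highest is Ring1 at 49.11%.

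The broad lists reach regions with a p near 0.1, and the H3K27me1 lists of the mutants hold no region on some chromosomes. The Ezh2 Y726D list lacks those of Pcgf1, Pcgf5, Pcgf6, Rybp and Yaf2, and the cover there was 65.31% for Ring1, 20.3% for Kdm2b, 11.9% for Pcgf3 and 6.407% for Rnf2. In dKO it was 60.45% for Ring1, 25.51% for Pcgf3, 12.05% for Yaf2, 8.123% for Pcgf1, 6.377% for Kdm2b, 6.177% for Pcgf5 and 0.5112% for Rybp, and 0 for Rnf2 and Pcgf6. The paper reports, from western blots, the loss of every form of H3K27 methylation in dKO and Ezh2 Y726D cells. Cover at a p near 0.1 in those lists is therefore not evidence of the mark. For Ezh2 KO cells the paper reports normal bulk H3K27me1, also from western blots. From spike-in scaled ChIP-seq it reports complete loss of H3K27me1 over highly transcribed genes in Ezh2 KO cells. In the same cells it reports a gain of H3K27me1 inside poorly transcribed genes that lost H3K27me2. Keeping only regions with p of at most 0.01, a limit chosen after seeing the data, 6 of 9 members had at least 10% of the body covered in WT (Ring1 92.1%, Pcgf3 76%, Pcgf6 71.3%, Rnf2 57.4%, Rybp 32.7% and Kdm2b 11.2%), where 29.6% of all genes did. At that limit 0 of 9 did in Ezh2 KO (2.99%), 0 of 9 in dKO (0.657%) and 0 of the 4 on listed chromosomes in Ezh2 Y726D (0.348%). The highest member had 0.337% in dKO and 0.161% in Ezh2 Y726D, and Ring1 had 0 in both. The regions at that limit summed to 177 Mb in WT and to 14.9, 6.6 and 1.3 Mb in the mutants, so at this limit the lower cover at the members went with fewer bases listed genome-wide. The full lists did not follow that order: they covered 391 Mb in WT, 499 Mb in Ezh2 KO, 253 Mb in dKO and 165 Mb in Ezh2 Y726D. The part of depth in this was not tested.

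H3K27me2 at the same limit covered at least 10% of the body of 0 members in WT (2.99% of all genes), Ezh2 KO (21%), dKO (0.559%) and Ezh2 Y726D (0.649%). At this limit the list of Ezh2 KO held the most, 174 Mb against 13 Mb in WT. The full lists covered 424 Mb in Ezh2 KO, 356 Mb in WT, 639 Mb in dKO and 628 Mb in Ezh2 Y726D. The paper reports, from western blots, global loss of H3K27me2 in Ezh2 KO cells and its loss in dKO and Ezh2 Y726D cells. From spike-in scaled ChIP-seq it reports loss over poorly expressed genes in these lines, and a gain at Polycomb-bound promoters in Ezh2 KO. The lists lack that scaling, so the megabases listed do not measure the amount of the mark. The highest members at this limit in Ezh2 KO were Pcgf5, with 8.65% of its body, and Kdm2b, with 3.6%. Around the start sites, listed regions of any p covered more at Pcgf5 and Yaf2 than at the median gene: in Ezh2 KO, H3K27me1 covered 45.98% and 44.33% and H3K27me2 42.66% and 52% of the promoter windows, beside medians of 7.218% and 1.94%. For H3K27me2 at Pcgf5 this was not particular to Ezh2 KO, with 36.42% in WT, 27.3% in dKO and 37.96% in Ezh2 Y726D. At Yaf2, H3K27me2 covered 0, 26.46% and 19.62% in those lines. The H3K27me1 cover in WT and dKO was 1.115% and 11.68% at Pcgf5, and 0 and 2.064% at Yaf2. The strongest H3K27me2 region near the Yaf2 start in Ezh2 KO had a −log10 p of 6.447, at the 96.4th percentile of all genes, and that near the Pcgf5 start 2.389, at the 80th. Pcgf3 had 2.005 and the other 6 members had no H3K27me2 region within 1 kb of the start. Pcgf5 and Yaf2 were singled out here after their values were seen.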

How the data were processed

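RNA-seq reads were aligned to mm9 with TopHat, PCR duplicates were removed with Picard and reads were counted per RefSeq gene with HTSeq-count without regard to strand. The authors deposited these as normalised counts, a signal in which each library is divided by its DESeq2 size factor. Dividing by the step of each library gave back whole reads for 100% of the values (tolerance 1e-06). ChIP-seq and ATAC-seq reads were aligned with Bowtie, and the authors' MACS2 peak lists were deposited per library, with the −log10 p of each peak and its fold enrichment (a ratio to background). The spike-in scaling that the study used for its ChIP-seq signal is not part of the peak lists, and the depth behind them is unknown. Lists of Ezh2 Y726D libraries labelled without the Ezh1 background were taken as the same line. RING1B, H2AK119ub, input and WT H3K27ac libraries, EZH2 rescue lines and proteasome inhibitor samples were not analysed here, and neither were the deposited fold changes and p-values of the authors' own comparisons.

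From these files, log2(normalised count + 1) of genes with a mean of at least 5 was fitted for all 8 libraries with limma 3.58.1 (R 4.3.3, trend on), with Benjamini-Hochberg adjustment over 13872 genes. Fold changes are on that scale, which understates those of low genes. The call needed an adjusted p below 0.1 together with a fold of 2 or more. The alternatives were count models of the recovered reads (edgeR 4.0.16, DESeq2 1.42.0) and other pseudocounts, filters, scalings and left-out libraries. Peaks with p of at most 1e-10 counted when they overlapped by 1 bp the 5 kb on either side of an annotated start site. Sequences were read from the mm9 genome, and figures were drawn with matplotlib 3.10.9. Named genes were the 9 members, Ezh1 and Ezh2, every list gene called in a comparison with WT, the gene of largest change in each list, and for each member the gene of most similar pattern. Usp7, Taf7l and the neighbours or overlapping genes of members (Tlx2, Lbx2, H2-Ke6, Orai1) were named after their values were seen, and Pou5f1 and Nanog as examples of the ESC markers. Not every gene of these pathways is reported here. The members and the lists were chosen with earlier results of these data known.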

Additional observations from a re-analysis of the deposited data

How the results depend on the processing

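The number of members called kept to the main count in 112 of 120 alternatives. For dKO against WT it was 0, and 0 to 1 over the fits that left out 1 library, being 1 (Pcgf5) without WT replicate 1. For dKO against Ezh2 KO it was 1, and 0 with quantile normalisation, 0 with the replicate block, 0 at an adjusted p under 0.05 and 0 to 1 over the left-out libraries. Fits without a library leave a line with 1 sample, which is assumed to vary like the others. The replicate numbers did not pair the libraries in a uniform way: the correlation of same-numbered deviations ran from −0.409 to 0.288 over 6 pairs of lines and passed 0.1 in 3. Whether lines share a technical difference that the numbers do not follow was not tested. The block changed no other count of members, and with it 34, 514, 330, 412, 162 and 404 genes of all were called, beside 56, 557, 377, 496, 233 and 489 without it. Over all alternatives those counts ran from 6 to 149 (Ezh2 KO against WT), 3 to 733 (dKO against WT), 32 to 546 (Ezh2 Y726D against WT), 53 to 1181 (dKO against Ezh2 KO), 14 to 514 (Ezh2 Y726D against dKO) and 98 to 962 (Ezh2 Y726D against Ezh2 KO), and the cause was not tested. The 8 members other than Pcgf5 stayed between −0.859 and 0.739 on the log2 scale and were never called.

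Of 98 counts of members with a peak, 62 equalled the main count and 82 were within 1.5 times of it. With only the longest transcript's start, SUZ12 in WT and H3K27me3 in WT, Ezh2 KO and Ezh2 R685C were each listed at 1 member. At p of at most 1e-20 SUZ12 was listed at 1 member in WT and 0 in Ezh2 Y726D, H3K27me3 at 1 in Ezh2 KO and 1 in Ezh2 R685C, and H3K27ac at 4 in Ezh2 KO and 2 in dKO. Within 1 kb H3K27me3 in Ezh2 KO was listed at 1.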

Other observations

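For each member, the gene whose log2 values over the 8 libraries followed it most closely was looked up among 8316 or 8317 genes with a mean normalised count of at least 100. For Pcgf5 this was P4ha2, a collagen prolyl hydroxylase subunit (Pearson r = 0.983). For Pcgf6 it was Sms, spermine synthase (r = 0.984), and for Pcgf1 Oraov1 (r = 0.975). Rybp was followed by Zfp119b (r = 0.974), Yaf2 by Samd8 (r = 0.971), Rnf2 by Timm10 (r = 0.962), Kdm2b by Zfp771 (r = 0.95), Ring1 by Tmx1 (r = 0.944) and Pcgf3 by Cdc16 (r = 0.938). Each r is the highest of many, over 8 points that share libraries, and no p is given.

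In dKO against Ezh2 KO, 2 of the 9 canonical PRC1 genes examined (Cbx2 and Cbx8) and 4 of the 14 germline genes (Dazl, Slc25a31, Taf7l and Tex101, with Taf7l named after its value was seen) were called higher, beside Pcgf5 among the 9 members and 3.52% of all genes. None of the 20 partners of the PRC1.1, PRC1.3, PRC1.5 and PRC1.6 forms was called in that comparison, beside 3.58% of all genes tested.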
